A study of Mus musculus with 4 samples.

Results

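The genes described here are 38 protein-coding Hox genes of the 4 mouse Hox clusters, taken by symbol from the 23235 symbols measured by RNA-seq in mouse haploid embryonic stem cells (haESCs). Each symbol starts with Hox, a cluster letter from a to d and a number. The study compared haESCs treated with the solvent DMSO with haESCs treated with RDF, a mixture of Repsox, an inhibitor of TGF-β receptor signaling, DMH1, an inhibitor of BMP signaling, and Forskolin, an activator of adenylyl cyclase. The cells were the androgenetic line HG165, which carries a paternal genome only, and there were 2 DMSO-treated and 2 RDF-treated samples. Every sample was thus from a single line, and ES medium with serum and LIF was the general culture condition. The labels put the cells on feeder cells, whereas the study's methods say that most experiments, with named exceptions other than RNA-seq, were done without them, so the use of feeders here is unclear. Doses, treatment time and sorting by DNA content for these samples are not given in the sources used here. The labels do not say whether replicates were separate cultures, so p-values measure the spread between these samples, which may be technical.

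Hox genes encode homeodomain transcription factors that specify position along the head-to-tail axis. Within each cluster the genes lie in the order in which they are switched on in the embryo, from the low-numbered anterior genes to the high-numbered posterior genes, and genes of the same number in different clusters are paralogs. In embryonic stem cells the clusters are known as Polycomb targets that carry both H3K27me3 and H3K4me3, and retinoic acid is a known inducer of their anterior ends.

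The markers of embryonic stem cells were high in every sample. Pou5f1 was between 939 and 1285 FPKM (fragments per kilobase of transcript after scaling to sequencing depth, hence a level per length) and Sox2 between 95.8 and 117 FPKM. Their levels were not the same in both groups. By limma on the log2(FPKM + 1) scale, 4 of the 10 listed markers were higher and 3 lower in RDF. Pou5f1 fell by 0.35 (limma, adjusted p = 0.0261). Dppa5a was 5493 and 5539 FPKM in DMSO and 3232 and 2839 FPKM in RDF. Zfp42 was 25.8 and 25.9 FPKM in DMSO and 48.1 and 47.0 FPKM in RDF. The listed markers of feeder fibroblasts, cells that themselves express Hox genes, summed to 111 and 107 FPKM in the DMSO-treated and 88.2 and 87.6 FPKM in the RDF-treated samples. Of the 17 markers, 11 were tested at a mean of at least 1 FPKM, where 2 were higher and 5 lower in RDF. Over all genes tested, 13.3% were higher and 8.28% lower. Fap was at or below 0.061 FPKM and Fbln1 between 44.7 and 51.4 FPKM in all 4 samples. The collagen gene Col1a1 was 10.5 and 10.4 FPKM in DMSO and 2.62 and 2.17 FPKM in RDF, and fell by 1.76 on the log2(FPKM + 1) scale (limma, adjusted p = 0.000577). Postn fell by 1.71, Tagln fell by 1.70 and Dcn rose by 1.65 on that scale (limma, adjusted p = 0.00164, 0.00219 and 0.00112). Prrx1 rose by 0.69 on the same scale (limma, adjusted p = 0.0124). Lum, below 1 FPKM, was 0.110 and 0.0485 FPKM in DMSO and 0.513 and 0.827 FPKM in RDF. It rose by 2.09 on the log2(FPKM + 0.1) scale (limma, adjusted p = 0.0213). Lum passed the 0.1 FPKM filter of that fit only through RDF, so its direction is no independent support. Neural markers summed to 57.7 and 51.0 FPKM in DMSO and 29.8 and 27.5 FPKM in RDF, of which Tubb3 alone gave 54.5 and 47.6 FPKM in DMSO and 26.7 and 24.1 FPKM in RDF. The neural gene Pax6 was 0.990 and 1.10 FPKM in DMSO and 1.47 and 1.35 FPKM in RDF (limma, adjusted p = 0.185). Trophoblast markers summed to 39.9 and 37.3 FPKM in DMSO and 67.4 and 67.8 FPKM in RDF. Tfap2c alone gave 27.2 and 25.1 FPKM of this in DMSO and 48.3 and 50.7 FPKM in RDF. On the log2(FPKM + 1) scale Tfap2c and Gata3 were called higher, and Eomes and Krt7 were not called (limma, adjusted p = 0.257 and 0.0596). The part of fibroblast, neural or trophoblast RNA in the Hox values was not tested. In these bulk samples fewer cells expressing a gene and less RNA per cell cannot be told apart. Depth was estimated from the steps between low values at 9700000 to 12340000 fragments per sample, and is approximate.

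The 250 bases upstream of the first listed RefSeq start of Hoxa5 and Hoxc4 are shown because both genes rose with RDF. They are on GRCm38.p6, at chr6:52204588-52204837 (minus strand) and chr15:103034145-103034394 (plus strand), written 5′ to 3′ with CG dinucleotides in capitals.
Hoxa5: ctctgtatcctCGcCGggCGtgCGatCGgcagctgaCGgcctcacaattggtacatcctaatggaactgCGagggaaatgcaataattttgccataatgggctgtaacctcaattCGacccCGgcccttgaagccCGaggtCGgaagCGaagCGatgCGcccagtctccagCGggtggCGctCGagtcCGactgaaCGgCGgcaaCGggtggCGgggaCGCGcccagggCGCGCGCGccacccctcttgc
Hoxc4: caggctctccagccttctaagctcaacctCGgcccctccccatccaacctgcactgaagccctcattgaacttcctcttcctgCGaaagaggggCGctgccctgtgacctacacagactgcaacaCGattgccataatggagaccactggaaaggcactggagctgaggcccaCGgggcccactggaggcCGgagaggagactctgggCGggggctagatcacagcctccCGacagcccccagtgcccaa
The Hoxa5 window held 28 CG dinucleotides and the Hoxc4 window 8. A RefSeq promoter was matched for 22 of the 38 Hox genes, among which that of Hoxb13 was not. Over these 22 the median was 12 CG dinucleotides per window, and it was 10 over 15677 windows of measured symbols. The letters TGACG, part of the cAMP response element, were searched on both strands and occurred in 6 Hox windows (27.3%) and in 20.9% of all windows. The letters CAGAC, the core of a Smad binding element, also on both strands, occurred in 7 Hox windows (31.8%) and in 40.8% of all windows. The Hoxa5 window held 1 TGACG and the Hoxc4 window 1 CAGAC. Other starts of a gene were not examined, and FPKM per symbol does not tell starts apart.

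Most Hox genes gave a signal, and few gave more than a trace. Averaged over the 4 samples, 33 of 38 Hox genes were above 0.1 FPKM (86.8%, against 65.7% of all symbols) and 10 were above 1 FPKM (26.3%, against 50.5% of all symbols). Each of these 38 genes was above 0 in at least 1 sample. Between 30 and 34 were above 0.1 FPKM in a single sample, and between 10 and 12 above 1 FPKM. In the HoxA cluster 9 of the 10 genes described were above 0.1 FPKM, and Hoxa5 and Hoxa10 were above 1 FPKM. In the HoxB cluster 9 of 10 were above 0.1 FPKM, and Hoxb13 was the only gene above 1 FPKM. In the HoxC cluster 8 of 9 were above 0.1 FPKM and 3 above 1 FPKM, namely Hoxc4, Hoxc10 and Hoxc13, although Hoxc4 alone reached 1 FPKM in every sample. In the HoxD cluster 7 of 9 were above 0.1 FPKM and 4 above 1 FPKM, namely Hoxd1, Hoxd4, Hoxd9 and Hoxd13. In HoxA, HoxC and HoxD the genes above 1 FPKM were separated by lower genes.

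**Figure D1:**
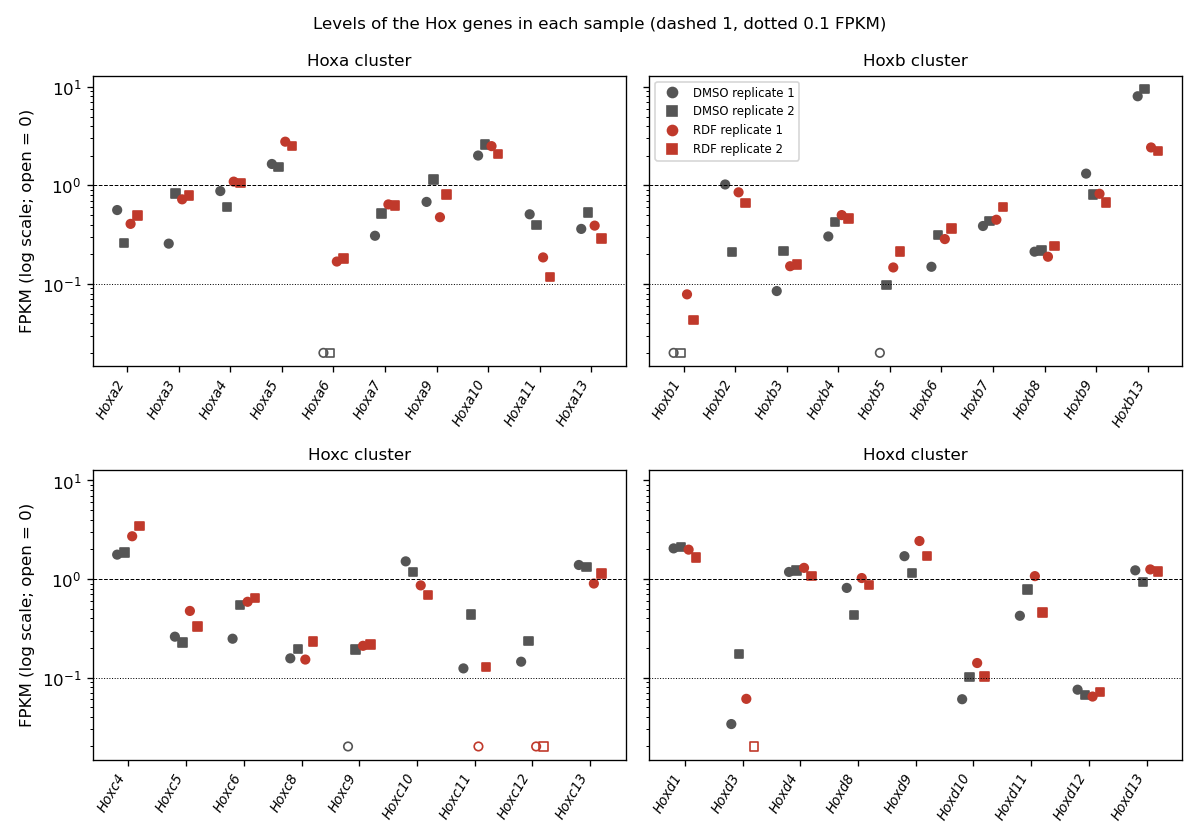
FPKM of the 38 Hox genes in each of the 4 samples, on a log axis, by cluster and in order of paralog number; grey is DMSO, red is RDF, open symbols at the bottom are values listed at 0. Hoxb13 stands above all other plotted genes in DMSO at 8.03 and 9.47 FPKM, and the highest plotted value in RDF is 3.46 FPKM, for Hoxc4.

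The 5 genes below 0.1 FPKM were Hoxa6, Hoxb1, Hoxc12, Hoxd3 and Hoxd12. Hoxa6 and Hoxb1 were listed at 0 in both DMSO-treated samples and stood at 0.169 and 0.181 FPKM (Hoxa6) and at 0.0785 and 0.0431 FPKM (Hoxb1) with RDF. Hoxc12, the gene next to Hoxc13 in the HoxC cluster, showed the reverse, with 0.145 and 0.236 FPKM in DMSO and 0 in both RDF-treated samples. Hoxd12 was between 0.0642 and 0.0753 FPKM in all samples, an estimated 1.91 to 2.07 fragments per sample. No fold is given for genes listed at 0 in a whole group.

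Among the Hox genes described here, Hoxb13 was the highest in the DMSO-treated cells and lost that place with RDF. It is the most posterior gene of the HoxB cluster, known for its expression in the tail bud, hindgut and prostate. Its level was 8.03 and 9.47 FPKM in DMSO and 2.43 and 2.24 FPKM in RDF, an estimated 172 and 230 against 66.1 and 54.9 fragments. Both RDF-treated samples were thus below both DMSO-treated samples, by 3.75-fold between the means of 8.75 ± 1.02 and 2.33 ± 0.133 FPKM (SD, n = 2). The difference was −1.55 (SE 0.106) on the log2(FPKM + 1) scale (limma over 11733 genes averaging 1 FPKM or more, adjusted p = 0.00101). Leaving out each sample in turn gave −1.65 to −1.44 with adjusted p from 0.000993 to 0.0272. On the log2(FPKM + 0.1) scale, fitted over 15273 genes averaging 0.1 FPKM or more, it was −1.86 (SE 0.125, limma, adjusted p = 0.00146). That call was lost when DMSO replicate 2, RDF replicate 1 or RDF replicate 2 was left out (adjusted p = 0.0503, 0.0835 and 0.0930). The study named Hoxb13 among primed pluripotency genes that fell in these samples, so its direction is not independent evidence.

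Hoxb13 stood apart from the rest of its cluster in level, position and change. In NCBIM37 (mm9) it lies on the plus strand at chr11:96055630-96058761, 74.0 kb from Hoxb9, while the next widest gap between HoxB genes was 10.6 kb. Hoxb13 exceeded Hoxb9, its nearest Hox neighbor, 6.09-fold and 11.7-fold in the DMSO-treated and 2.95-fold and 3.35-fold in the RDF-treated samples. It made up 69.8% and 77.6% of the summed FPKM of the HoxB genes in DMSO and 41.1% and 39.6% in RDF. Among the 38 Hox genes it ranked 1 in both DMSO-treated samples, and 5 and 3 in RDF replicates 1 and 2. It exceeded 72.2% and 74.2% of all measured symbols in DMSO and 57.6% and 56.8% in RDF.

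None of the neighbors of Hoxb13 within the cluster was called. Hoxb9 was 1.32 and 0.812 FPKM in DMSO and 0.822 and 0.669 FPKM in RDF, with overlapping groups and a difference of −0.43 on the log2(FPKM + 0.1) scale (limma, adjusted p = 0.341). Hoxb8 was between 0.189 and 0.244 FPKM in all 4 samples, nearly the same level in each. Hoxb2 varied most between replicates, at 1.02 and 0.210 FPKM in DMSO and 0.851 and 0.665 FPKM in RDF. Hoxb3, Hoxb4, Hoxb5, Hoxb6 and Hoxb7 were each at or below 0.601 FPKM throughout, and none of them was called (limma, adjusted p from 0.247 to 0.923). In Hoxb4, Hoxb5 and Hoxb7 both RDF-treated samples were above both DMSO-treated samples, as in 34.3% of all genes averaging 0.1 FPKM or more. The groups of Hoxb3 and Hoxb6 overlapped. Without Hoxb13 the HoxB genes summed to 3.48 and 2.73 FPKM in DMSO and 3.47 and 3.42 FPKM in RDF, with the RDF-treated samples inside the range of the DMSO-treated ones.

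**Figure D2:**
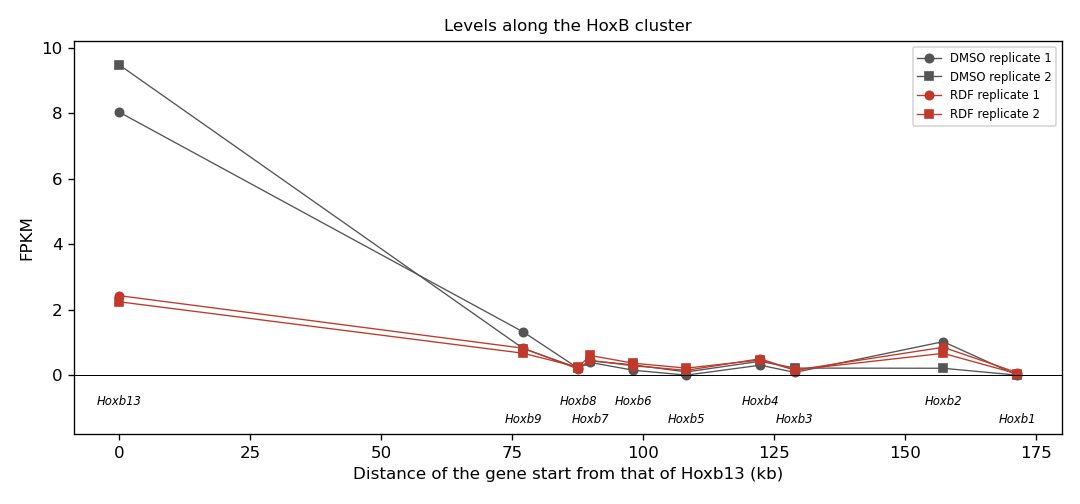
FPKM of the 10 HoxB genes in each sample against the distance of the gene start from that of Hoxb13, in kb. Hoxb13 stands at 8.03 and 9.47 FPKM in DMSO and 2.43 and 2.24 FPKM in RDF, while the genes from Hoxb9 onward lie at or below 1.32 FPKM.

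Of the genes outside the cluster on the side of Hoxb13, none of the nearest 3 was called lower. Ttll6, the first gene past it, was between 0.0846 and 0.148 FPKM. Calcoco2, an autophagy receptor gene, was 18.9 and 20.9 FPKM in DMSO and 25.5 and 25.8 FPKM in RDF, higher by 0.35 on the log2(FPKM + 1) scale (limma, adjusted p = 0.0196). Gm53, whose annotated span lies in the gap between Hoxb13 and Hoxb9, was 0.757 and 1.13 FPKM in DMSO and 0.839 and 0.535 FPKM in RDF, and its groups overlapped. Of the 24 genes nearest to the 4 clusters, 3 on each side, 15 were tested at a mean of at least 1 FPKM. By limma 3 of these were higher in RDF and 0 lower (5 and 2 at an unadjusted p under 0.05; 13.3% of all genes tested were higher and 8.28% lower), and their median difference was 0.08 against 0.03 over all genes tested.

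Hoxa5 and Hoxc4, of the central paralog groups 4 to 8, rose. Hoxa5 was 1.65 and 1.53 FPKM in DMSO and 2.78 and 2.52 FPKM in RDF, a difference of 0.49 on the log2(FPKM + 1) scale (limma, adjusted p = 0.0240). Hoxc4 was 1.77 and 1.86 FPKM in DMSO and 2.72 and 3.46 FPKM in RDF, a difference of 0.53 (limma, adjusted p = 0.0301). The groups of both genes did not overlap, but leaving out samples ended most of the calls. Hoxa5 was at an adjusted p of 0.0474 without DMSO replicate 1 and at 0.0710, 0.122 and 0.0940 without DMSO replicate 2, RDF replicate 1 and RDF replicate 2. Hoxc4 was at an adjusted p of 0.0725, 0.0605, 0.0614 and 0.142 without DMSO replicate 1, DMSO replicate 2, RDF replicate 1 and RDF replicate 2.

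In counts, 3 of the 10 Hox genes averaging 1 FPKM or more were called at an adjusted p of 0.05 (30.0%, against 21.6% of all genes tested). Of these 3, 2 were higher in RDF (13.3% of all genes tested were) and 1 was lower (8.28% were). On the log2(FPKM + 0.1) scale the same 3 genes were called among 33 tested (9.09%, against 15.4% of all genes, of which 9.38% were higher and 6.04% lower). The share of called Hox genes was therefore above the background in the first set and below it in the second. On the first scale 2 genes were called without DMSO replicate 1, and Hoxb13 alone without DMSO replicate 2, RDF replicate 1 or RDF replicate 2. On the second scale Hoxb13 alone was called without DMSO replicate 1, and by limma 0 without DMSO replicate 2, RDF replicate 1 or RDF replicate 2 (11, 5 and 3 at an unadjusted p under 0.05).

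The 7 uncalled genes of the first set included both directions. Hoxd1 was between 1.66 and 2.11 FPKM and Hoxd4 between 1.08 and 1.30 FPKM, with differences of −0.13 and −0.01 on the log2(FPKM + 1) scale. Hoxa10 was between 2.01 and 2.60 FPKM with a difference of 0.00. Hoxd9 was 1.71 and 1.15 FPKM in DMSO and 2.43 and 1.72 FPKM in RDF (0.34, limma, adjusted p = 0.197). Hoxc10, expressed in the embryonic hindlimb region, was 1.51 and 1.18 FPKM in DMSO and 0.862 and 0.687 FPKM in RDF, a difference of −0.40 whose groups did not overlap (limma, adjusted p = 0.0796).

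Ordered by paralog number, the differences were mostly above 0 in the central groups, and in the posterior groups their median was below 0. Of the 14 tested genes of groups 4 to 8, 12 had a positive difference on the log2(FPKM + 0.1) scale, with a median of 0.52. Of the 14 tested genes of groups 9 to 13, 8 had a negative difference, with a median of −0.35, and without Hoxb13 the median was −0.30. Leaving out each sample in turn moved these medians, to between 0.22 (without DMSO replicate 1) and 0.53 for groups 4 to 8 and to between −0.27 and −0.09 (without DMSO replicate 2) for groups 9 to 13. Median-ratio scaling and quantile normalization gave 9 negative genes in groups 9 to 13 in place of 8. The 5 tested genes of groups 1 to 3 that are described here had a median of 0.17, which turned to −0.12 and −0.16 without DMSO replicates 1 and 2. Over the 33 tested Hox genes the median was 0.25, and 0.03 without DMSO replicate 1, against 0.03 over all genes tested with the 4 samples. Spearman's rho between paralog number and difference was −0.48 over the 33 Hox genes and −0.44 over 32 without Hoxb13. Hoxb5, Hoxc9 and Hoxd10 passed the 0.1 FPKM filter only through RDF, and Hoxc11 only through DMSO. The 33 points share the same 4 libraries and are given as a description. Most of them were not called, and the median SE was 0.37 for the 23 genes below 1 FPKM against 0.19 for the 10 above it.

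**Figure D3:**
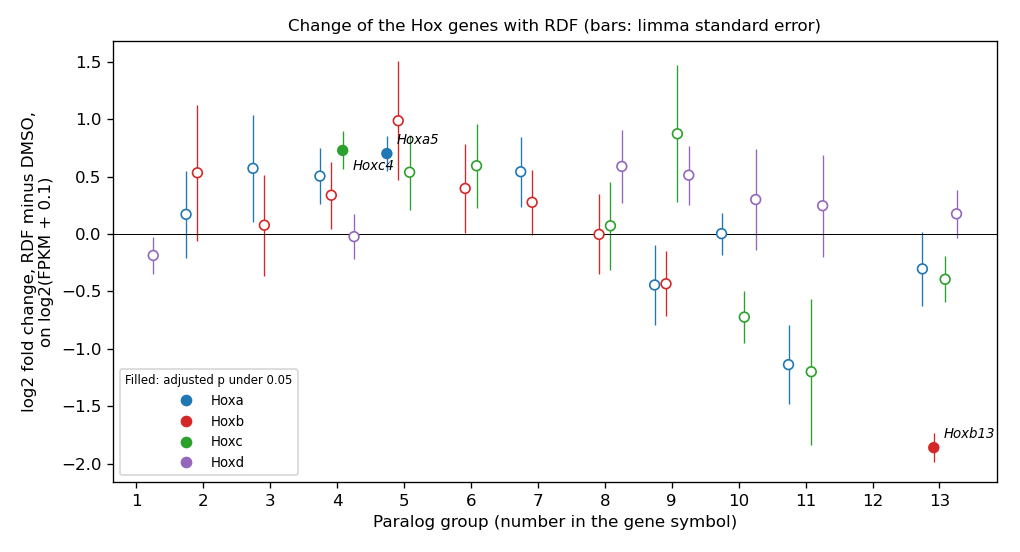
Difference between RDF and DMSO on the log2(FPKM + 0.1) scale for the 33 Hox genes averaging 0.1 FPKM or more, by paralog group; bars are limma standard errors and filled points have an adjusted p under 0.05. The filled points are Hoxa5 and Hoxc4 above 0 and Hoxb13 below.

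By the values themselves, both RDF-treated samples were above both DMSO-treated samples in 13 of the 33 tested Hox genes (34.3% of all genes tested with this filter were) and below in 5 (27% of all genes were). Among groups 4 to 8 there were 10 of 14 above and none below. They included Hoxa4, at 0.877 and 0.601 FPKM in DMSO and 1.09 and 1.05 FPKM in RDF, and Hoxa7, at 0.308 and 0.519 FPKM in DMSO and 0.642 and 0.622 FPKM in RDF. Among groups 9 to 13 there were 3 of 14 above, namely Hoxc9, Hoxd9 and Hoxd10, and 4 below, namely Hoxb13, Hoxc10, Hoxc13 and Hoxa11. The share below was near that of all genes. Hoxb5, Hoxc9 and Hoxd10, counted as above, averaged 0.0489, 0.0963 and 0.0805 FPKM in DMSO. They thus passed the 0.1 FPKM filter only through RDF, and their direction is no independent support. Hoxa11, which patterns the limb, was 0.510 and 0.394 FPKM in DMSO and 0.186 and 0.118 FPKM in RDF, a difference of −1.14 (limma, adjusted p = 0.0798).

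None of the other genes of paralog group 13 was called. Hoxc13 was 1.39 and 1.33 FPKM in DMSO and 0.900 and 1.13 FPKM in RDF, a difference of −0.39 on the log2(FPKM + 0.1) scale (limma, adjusted p = 0.234). Hoxa13 was between 0.291 and 0.532 FPKM and its groups overlapped. Hoxd13 was 1.23 and 0.931 FPKM in DMSO and 1.25 and 1.19 FPKM in RDF, a difference of 0.18 (adjusted p = 0.607). With Hoxb13 the group summed to 11.0 and 12.3 FPKM in DMSO and 4.97 and 4.85 FPKM in RDF. Hoxb13 alone gave 8.03 and 9.47 FPKM of this in DMSO and 2.43 and 2.24 FPKM in RDF.

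Summed by cluster, the 10 HoxA genes described were at 7.22 and 8.41 FPKM in DMSO and 9.37 and 8.98 FPKM in RDF, higher in both RDF-treated samples. HoxB was 11.5 and 12.2 FPKM in DMSO and 5.90 and 5.66 FPKM in RDF, lower in both. HoxC was 5.60 and 6.20 FPKM in DMSO and 5.90 and 6.83 FPKM in RDF, and HoxD was 7.56 and 6.98 FPKM in DMSO and 9.33 and 7.15 FPKM in RDF, with overlapping groups in both. With 2 samples against 2, an exact permutation test of such a sum cannot give a two-sided p below 0.333.

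The remaining members were low and uncalled. Hoxc5 was 0.260 and 0.227 FPKM in DMSO and 0.474 and 0.331 FPKM in RDF, Hoxc6 0.248 and 0.547 FPKM in DMSO and 0.588 and 0.646 FPKM in RDF, and Hoxd8 0.813 and 0.430 FPKM in DMSO and 1.02 and 0.874 FPKM in RDF. These 3 genes had both RDF-treated samples above both DMSO-treated samples. Hoxa2 lay between 0.260 and 0.563 FPKM, Hoxa3 between 0.257 and 0.826 FPKM, Hoxa9 between 0.476 and 1.14 FPKM, and Hoxd11 between 0.424 and 1.07 FPKM, with overlapping groups. Hoxc8 and Hoxc9 were at or below 0.232 FPKM, Hoxc11 at or below 0.435 FPKM, Hoxd3 at or below 0.173 FPKM and Hoxd10 at or below 0.141 FPKM. Across those tested the adjusted p was from 0.251 to 0.917 (limma, log2(FPKM + 0.1) scale).

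Among the non-coding symbols inside the clusters, 8 of 10 were listed at 0 in every sample. They include the microRNA symbols Mir10a, Mir10b, Mir196a-1, Mir196a-2, Mir196b and Mir615. The libraries were made from isolated mRNA, so these values do not measure the mature microRNAs. The antisense gene Hoxa11as was 0.628 and 0.749 FPKM in DMSO and 0.279 and 0.489 FPKM in RDF, the same direction as Hoxa11, without a call (limma, adjusted p = 0.172). The library kit was stranded but the strand setting of the quantification is not given in the sources used here, so reads of Hoxa11 and Hoxa11as may not be told apart. The exons of Hoxa2 and Hoxa3, of Hoxb7 and Hoxb8, and of Hoxd3 and Hoxd4 overlap in the GENCODE annotation. Their values may be uncertain for that reason. The study's methods name the UCSC mm9 annotation for quantification, in which the overlap was not checked.

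Genes that act with or on the clusters were described from written lists. Of the 29 Polycomb genes, which repress Hox clusters in embryonic stem cells, 7 were higher in RDF and 0 lower on the log2(FPKM + 1) scale by limma (12 and 0 at an unadjusted p under 0.05; 13.3% of all genes tested were higher and 8.28% lower), with a median of 0.16 against 0.03 over all genes tested. Suz12, a core subunit of the complex that places H3K27me3, was 41.6 and 42.0 FPKM in DMSO and 75.3 and 79.4 FPKM in RDF (0.87, limma, adjusted p = 0.000836). Its partner Aebp2 was 12.2 and 12.1 FPKM in DMSO and 19.6 and 23.4 FPKM in RDF (0.77, limma, adjusted p = 0.00477). The catalytic subunit Ezh2 was between 78.5 and 92.0 FPKM and its groups overlapped. Of 8 Trithorax and H3K27 demethylase genes, only Kdm6a was called (0.33, limma, adjusted p = 0.0439), and on the log2(FPKM + 0.1) scale it was not (limma, adjusted p = 0.0552).

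Of the 11 tested retinoic acid genes, 3 were higher and 1 lower on the log2(FPKM + 1) scale, where 13.3% of all genes tested were higher and 8.28% lower. Stra8, a retinoic acid induced germ cell gene, was 20.9 and 18.9 FPKM in DMSO and 95.5 and 88.5 FPKM in RDF (2.15, limma, adjusted p = 0.000143). Cyp26a1, which degrades retinoic acid, was 1.26 and 2.15 FPKM in DMSO and 3.72 and 3.59 FPKM in RDF (0.80, limma, adjusted p = 0.0221). Crabp2, a retinoic acid binding protein, fell by 0.65 (limma, adjusted p = 0.0148), and Aldh1a2, which makes retinoic acid, was not called (−0.21, adjusted p = 0.111). On the log2(FPKM + 0.1) scale the low genes Rarb and Cyp26b1 were called higher (1.75 and 1.87, limma, adjusted p = 0.0465 and 0.0239). Rarb was 0 and 0.0315 FPKM in DMSO and 0.255 and 0.316 FPKM in RDF. Cyp26b1 was 0.127 and 0.0549 FPKM in DMSO and 0.544 and 0.628 FPKM in RDF. Both passed the 0.1 FPKM filter only through RDF, so their direction is no independent support.

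The ParaHox gene Cdx1, whose family activates central Hox genes, was 12.0 and 11.0 FPKM in DMSO and 15.4 and 13.6 FPKM in RDF (0.31, limma, adjusted p = 0.0494), and on the log2(FPKM + 0.1) scale it was not called (limma, adjusted p = 0.0614). Cdx4 was 0.0638 and 0.161 FPKM in DMSO and 0.560 and 0.609 FPKM in RDF (1.73 on the log2(FPKM + 0.1) scale, limma, adjusted p = 0.0319). Among the TALE cofactors, which bind DNA together with Hox proteins, 0 of the 6 tested at 1 FPKM were called by limma (1 higher and 1 lower at an unadjusted p under 0.05). Over all genes tested at that level, 21.6% were called. Meis1, below that level, was 0.286 and 0.319 FPKM in DMSO and 0.698 and 0.812 FPKM in RDF (1.09 on the log2(FPKM + 0.1) scale, limma, adjusted p = 0.0448). Of the posterior axis genes, the primitive streak factor T was 1.63 and 1.27 FPKM in DMSO and 0.333 and 0.401 FPKM in RDF (−1.73 on the same scale, limma, adjusted p = 0.0104). Stra8 and T, like Hoxb13, were named by the study among genes that changed in these samples. Fgf17 was lower and Fgf4 higher on the log2(FPKM + 1) scale (−0.56 and 0.37, limma, adjusted p = 0.0106 and 0.00913). By limma on the log2(FPKM + 0.1) scale, 1 of 5 tested ParaHox genes was higher and 0 lower. Of 9 tested TALE cofactors 1 was higher and 0 lower, and of 9 tested posterior axis genes 1 was higher and 2 lower. Over all genes tested on that scale, 9.38% were higher and 6.04% lower.

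**Figure D4:**
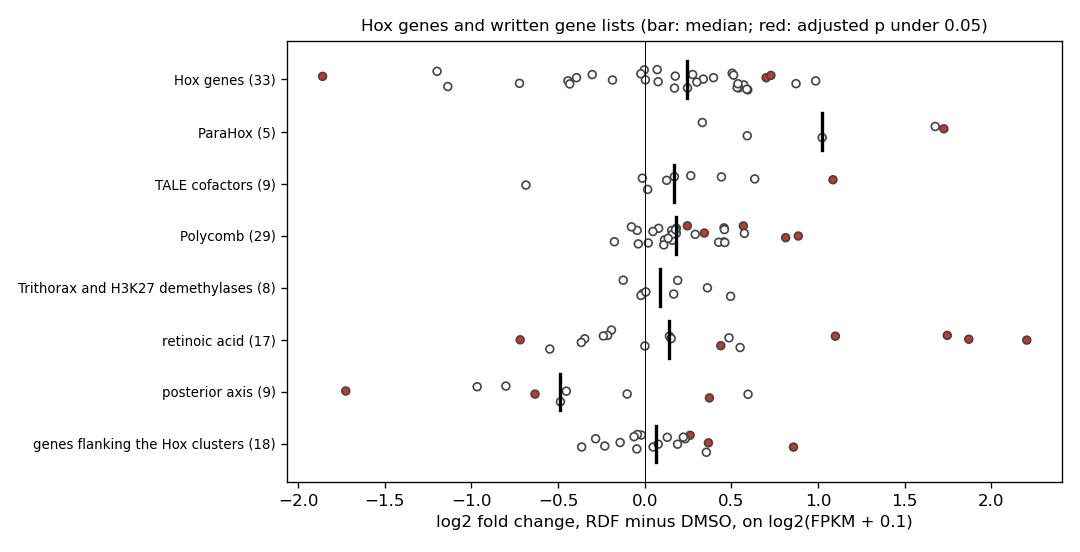
Difference between RDF and DMSO on the log2(FPKM + 0.1) scale for the 33 tested Hox genes and for the genes of 7 written lists, with the number tested in brackets; each point is a gene, red has an adjusted p under 0.05 and the bar is the median. The Hox median is 0.25 and the Polycomb median 0.18, and the retinoic acid list spreads to both sides of its median of 0.14.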

How the data were processed

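RNA-seq of 2 DMSO-treated and 2 RDF-treated samples of HG165 haESCs was used. mRNA was isolated from 150 ng of RNA per sample for a stranded library. The authors deposited FPKM per gene symbol, 1 table per sample; the submitters' processing notes name TopHat2 2.0.14, Bowtie2 2.1.0, Cufflinks 2.2.1 and the build mm9. FPKM holds no counts, so low levels carry an unknown counting error; between 42.9% and 47.5% of low values lay within 0.1 fragments of a whole number at the estimated depth, which is too few to recover reads, and no count test was run. Groups were taken from the sample titles. Levels were tested with limma 3.58.1 (R 4.3.3; mean-variance trend, Benjamini-Hochberg adjustment over all genes tested, threshold 0.05), on log2(FPKM + 1) for symbols averaging 1 FPKM or more and on log2(FPKM + 0.1) for those averaging 0.1 FPKM or more. Fold changes on such scales understate the change of low genes. The script was tested on simulated data. Cluster positions, exons and the transcript lengths behind the fragment estimates were taken from the GENCODE annotation of NCBIM37 (mm9). All 39 symbols of the Hox rule were found there. The study's methods name the UCSC mm9 annotation for the FPKM values. Promoters were taken from RefSeq (GRCm38.p6), for sequence only.

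Of the 39 symbols, 1 Hox gene is not reported here; it stayed in the fits and is in no Hox count. The members and gene lists were chosen with earlier results of these data known. Genes were named by rule: Hox genes averaging 1 FPKM or more or called in either fit, all HoxB genes, the highest gene of each cluster, the paralogs of group 13, and up to 4 genes per list, called genes with the largest change first and then the most abundant. Hoxa4, Hoxa6, Hoxa7, Hoxa11, Hoxc12, Hoxd12, the other low Hox genes and the remaining list genes named were added after their values were seen. Alternatives were another pseudocount or filter, median-ratio scaling, quantile normalization, no trend, a replicate block and leaving out each sample.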

Additional observations from a re-analysis of the deposited data

How the results depend on the processing

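Hoxb13 kept its direction and its call on the log2(FPKM + 1) scale under all alternatives, with differences between −1.65 and −1.44, and −1.86 with a pseudocount of 0.1. On that scale 3 Hox genes were called under every alternative with all 4 samples except that without a filter on low values (2, 1 of them higher, where Hoxa5 and Hoxc4 were not called and Hoxa6 was). Leaving out 1 sample, where the lone sample is assumed to vary like the others, gave 1 to 2 called Hox genes (4 at an unadjusted p under 0.05 each time), of which 0 to 1 were higher and 1 lower, and 448 to 1852 genes in all against 2533. No filter gave 1548 genes in all. On the log2(FPKM + 0.1) scale leaving out 1 sample gave 0 to 1 called Hox genes by limma (3 to 11 at an unadjusted p under 0.05), 0 higher and 0 to 1 lower, and 17 to 108 genes in all against 2355. Without the trend there was 1 by limma (0 higher; 7 at an unadjusted p under 0.05; 199 genes in all), without a filter 1 was higher and 2 were lower (Hoxb13 and Hoxc12), and quantile normalization gave 2, 1 of them higher, without Hoxc4 (adjusted p = 0.0501). Of the HoxC genes 1 rather than 3 reached 1 FPKM in every sample.

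With the replicate number as a block, 3 Hox genes were called on either scale and Hoxb13 was at −1.55 (limma, adjusted p = 0.00195); 1651 genes were higher and 1066 lower. Same-numbered samples deviated together only weakly (r = 0.13, rho = 0.11 across genes), there are 2 pairs, and the labels tie them to nothing shared, so the samples share only a number.

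Differences that changed sign were all of uncalled genes. Hoxa10 was −0.021 under median-ratio scaling and −0.054 under quantile normalization on the log2(FPKM + 1) scale, and −0.027 and −0.073 on the log2(FPKM + 0.1) scale. Hoxb8 was 0.00018 with a pseudocount of 1 and 0.010 under quantile normalization. Without 1 sample in turn, values on the log2(FPKM + 1) scale ran from −0.13 to 0.13 for Hoxa10, −0.0032 to 0.20 for Hoxd13 and −0.085 to 0.061 for Hoxd4. On the log2(FPKM + 0.1) scale they ran from −0.17 to 0.18 for Hoxa10, −0.27 to 0.61 for Hoxa2, −0.12 to 1.26 for Hoxa3, −0.40 to 1.46 for Hoxb2, −0.31 to 0.46 for Hoxb3, −0.13 to 0.12 for Hoxb8, −0.13 to 0.27 for Hoxc8, −0.29 to 0.78 for Hoxd11, −0.0056 to 0.36 for Hoxd13 and −0.15 to 0.10 for Hoxd4. The cause was not tested. The number of samples and the low levels limit what these data can separate: 28 of the 38 Hox genes were below 1 FPKM.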
